A study of Mus musculus with 10 samples.

Results

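A set of 10 neutrophil-associated genes was followed across 10 mouse melanomas, 5 labelled Fes KO and 5 labelled Fes WT. The 10 members (S100a8, S100a9, Csf3r, Cxcr2, Il1r2, Il1b, Clec4d, Clec4e, Trem1 and Retnlg) were taken by gene symbol from a table of 47643 genes. All 10 were found, and all 10 passed the filter on low counts that left 14816 genes for testing. The Fes KO tumours carried Fes-/- and the Fes WT tumours Fes+/+. Both groups shared the alleles Tyr::CreERT2/+, BRafV600E/+ and Ptenl/l, and back skin was treated with 4-hydroxytamoxifen at 5 mM. The Tyr promoter restricts this Cre to cells that make tyrosinase, the melanocyte lineage, whereas the Fes alleles are written without a conditional mark. RNA came from tumour tissue and not from sorted cells. The comparison asks whether melanomas of the Fes-/- genotype differ in the level of neutrophil RNA.

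Neutrophils are short-lived granulocytes made in the bone marrow under the growth factor G-CSF and drawn into tissue by CXC chemokines. They store granule proteins made early in their development, and mature cells in tissue carry large amounts of the calcium-binding pair S100A8 and S100A9 and of receptors for chemokines, interleukin 1 and microbial ligands. Several of the 10 genes are shared with other cells. Monocytes and macrophages also use Il1b, Clec4d, Clec4e and Trem1, and stressed keratinocytes make S100a8 and S100a9.

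Read totals lay between 13226783 and 16599120 per tumour. Levels are given as CPM, the usual depth-scaled count, with library sizes scaled by the trimmed mean of M values (TMM). Fes itself was at 33.4, 30.6, 29.1, 57.4 and 42.3 CPM in Fes KO 1 to 5, against 84.5, 74.4, 71.9, 72.6 and 102 CPM in Fes WT 1 to 5, so every Fes KO tumour lay below every Fes WT tumour, with reads still counted to Fes in each. Its log2 fold change, Fes KO minus Fes WT, was -1.06 (SE 0.19) with an adjusted p of 0.0846 in edgeR. The mean level of Sox10, a transcription factor gene of melanocytes and melanoma, was 738 ± 225 CPM over the Fes KO tumours, against 635 ± 159 CPM over the Fes WT tumours (SD, n = 5 each). Tissue content was uneven. The summed level of 15 keratinocyte markers was 5504 CPM in Fes KO 2 and between 16.4 and 21.5 CPM in the other Fes KO tumours, against 19.9 to 236 CPM in Fes WT. Skeletal muscle markers reached 16660 CPM in Fes WT 3. The labels of the deposited counts give each tumour its own number, and only that of Fes WT 5 has a different prefix. What the prefix stands for is not stated, and its part in the levels of Fes WT 5 was not tested. No batch is named in the labels, and nothing states that each tumour had its own animal. The spread that p-values rest on may therefore be partly technical, and the tumours may not be independent replicates.

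The neutrophil label was set beside 4 further markers, Ly6g and the granule genes Ngp, Camp and Mpo. Granule proteins are made early in neutrophil development, so reads of their genes need not follow the number of mature cells. Ly6g, the surface protein used to sort mouse neutrophils, had 3 reads over the 5 Fes KO tumours and 18 over the 5 Fes WT tumours, of which 11 were in Fes WT 5. The granule genes Ngp and Camp had 0 and 4 reads over Fes KO, against 36 and 13 over Fes WT. Mpo, myeloperoxidase, had 6 and 4 reads in Fes KO and Fes WT. These markers were therefore at or near the floor of 3 reads per tumour (0.179 to 0.228 CPM) in most tumours, and none of the 4 passed the filter. Ngp stood above that floor in Fes WT 1 and Fes WT 5, with 11 and 22 reads, and had 0 in every Fes KO tumour. Camp was above it in Fes WT 1 and Fes WT 5, with 5 and 6 reads, and Ly6g in Fes WT 2 and Fes WT 5, with 5 and 11 reads. Fes KO 4 had 2, 0, 2 and 1 reads of Ly6g, Ngp, Camp and Mpo. Each of the 10 members had more reads over either group than any of these 4 markers, and the set is described here by its genes and not as a count of cells. In whole-tumour RNA, fewer cells of a type and less RNA per cell cannot be told apart.

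S100a8 and S100a9 lie near each other on chromosome 3 and encode the subunits of calprotectin, which binds calcium and zinc and acts as an alarm signal at sites of inflammation. S100a8 (ENSMUSG00000056054, 90668978 to 90670035, plus strand, GRCm38) was at 1.51, 6.25, 0.554, 18.7 and 0.437 CPM in Fes KO 1 to 5, against 6.39, 10.04, 3.65, 3.595 and 36.7 CPM in Fes WT 1 to 5. S100a9 (ENSMUSG00000056071, 90692632 to 90695721, minus strand) was at 2.08, 3.81, 0.923, 29.5 and 0.437 CPM in Fes KO 1 to 5, against 8.41, 14.6, 3.91, 5.36 and 64.3 CPM in Fes WT 1 to 5. Both genes were highest in Fes WT 5 and next highest in Fes KO 4, and the groups overlapped, through Fes KO 4 and, for S100a8, also Fes KO 2. The lowest values were those of Fes KO 3 and Fes KO 5, with between 6 and 15 reads per gene. The log2 fold change was -1.12 for S100a8 (SE 1.05, adjusted p = 0.760) and -1.39 for S100a9 (SE 1.15, adjusted p = 0.726) in edgeR's quasi-likelihood test with Benjamini-Hochberg adjustment over all tested genes. Neither difference exceeded the spread between tumours.

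The promoters of this pair are shown with those of Csf3r, which followed them across tumours, and of Retnlg, which did not. Each runs 5′ to 3′ on the gene's strand from 250 bases before to 50 after the RefSeq start (GRCm38.p6). Capitals mark matches on either strand to TTNNGNAA, a loose form of the C/EBP site, or to GAGGAA, the core that the granulocyte and macrophage factor PU.1 binds; no 2 matches overlap in these 4 sequences.
S100a8, chr3:90668821-90669120, plus strand: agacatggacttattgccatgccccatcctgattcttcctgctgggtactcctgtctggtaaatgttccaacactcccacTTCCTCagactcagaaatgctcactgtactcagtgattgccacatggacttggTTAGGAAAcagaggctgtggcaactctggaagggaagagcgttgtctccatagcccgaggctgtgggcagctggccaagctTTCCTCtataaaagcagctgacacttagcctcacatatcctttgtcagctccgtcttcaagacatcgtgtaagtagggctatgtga
S100a9, chr3:90695672-90695971, minus strand: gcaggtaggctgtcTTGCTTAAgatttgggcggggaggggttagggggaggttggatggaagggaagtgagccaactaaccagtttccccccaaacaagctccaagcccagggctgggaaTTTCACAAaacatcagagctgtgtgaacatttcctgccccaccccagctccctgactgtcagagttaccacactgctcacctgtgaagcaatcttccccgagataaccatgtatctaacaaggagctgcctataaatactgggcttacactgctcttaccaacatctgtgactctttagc
Csf3r, chr4:126024409-126024708, plus strand: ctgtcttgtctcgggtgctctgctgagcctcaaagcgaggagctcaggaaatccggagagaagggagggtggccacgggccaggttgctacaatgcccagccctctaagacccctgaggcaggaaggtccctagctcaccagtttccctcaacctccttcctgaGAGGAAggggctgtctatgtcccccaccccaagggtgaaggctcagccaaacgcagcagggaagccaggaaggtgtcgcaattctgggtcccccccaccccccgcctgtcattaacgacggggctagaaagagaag
Retnlg, chr16:48872358-48872657, plus strand: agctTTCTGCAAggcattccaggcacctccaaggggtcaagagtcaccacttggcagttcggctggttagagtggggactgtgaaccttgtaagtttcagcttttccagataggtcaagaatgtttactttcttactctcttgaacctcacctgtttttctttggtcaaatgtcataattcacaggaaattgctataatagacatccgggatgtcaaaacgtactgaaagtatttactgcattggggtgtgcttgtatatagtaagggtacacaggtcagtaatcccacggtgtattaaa
All 10 members had an entry in the promoter table. TTNNGNAA was found in 7 of the 10 and in 40.7% of all 32851 promoters of this length. GAGGAA was found in 6 of the 10 and in 28.3% of all. TGANTCA, the AP-1 site, was in 0 of the 10 and in 7.81% of all. A match is a string of letters in this window and was not linked to binding.

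Csf3r, Cxcr2 and Il1r2 encode receptors. Csf3r, the receptor for G-CSF (ENSMUSG00000028859, chromosome 4, 126024550 to 126044440), was at 5.41, 11.3, 4.92, 24.0 and 8.44 CPM in Fes KO 1 to 5, against 20.5, 14.4, 13.1, 11.5 and 61.5 CPM in Fes WT 1 to 5. Apart from Fes KO 4, the Fes KO tumours lay below the lowest Fes WT tumour, Fes WT 4, by a margin that was small for Fes KO 2. Its log2 fold change was -1.15 (SE 0.58, adjusted p = 0.567). Cxcr2, the receptor for the neutrophil chemokines (ENSMUSG00000026180, chromosome 1, 74153989 to 74161246), ranged from 0.0616 to 3.66 CPM in Fes KO with a median of 0.441, against 0.717 to 11.4 CPM in Fes WT with a median of 1.04. Its lowest value rests on 1 read in Fes KO 3, with an exact 95% interval of 0.00156 to 0.343 CPM that covers counting error only. For Cxcr2 the fitted difference was -1.45 on the log2 scale (SE 1.07, adjusted p = 0.683). Stretches of Csf3r are 96.8% identical to AC105061.2 over 1518 bases, and of Cxcr2 90.9% identical to A230085B16Rik over 537 bases, so some of their reads may be shared. Il1r2, a decoy receptor that binds interleukin 1 without signalling (ENSMUSG00000026073, chromosome 1, 40074079 to 40125231), was at 0.252, 3.87, 0.123, 5.68 and 0.582 CPM in Fes KO 1 to 5, against 2.22, 5.34, 2.54, 1.95 and 10.4 CPM in Fes WT 1 to 5. Here Fes KO 2, the keratinocyte-rich tumour, joined Fes KO 4 inside the Fes WT range. The log2 fold change of Il1r2 was -1.07 (SE 0.93, adjusted p = 0.741).

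Il1b, the inflammatory cytokine cleaved by caspase-1 before release (ENSMUSG00000027398, chromosome 2, 129364570 to 129371139), was at 1.51, 2.38, 0.616, 13.2 and 4.80 CPM in Fes KO 1 to 5, against 6.32, 10.4, 3.32, 7.74 and 28.3 CPM in Fes WT 1 to 5. Fes KO 4 lay above 4 of the 5 Fes WT tumours and Fes KO 5 above 1 of them. The log2 fold change was -1.31 (SE 0.80, adjusted p = 0.621). Exons of Il1b overlap those of the antisense gene Il1bos, and the counting is not stated to use strand, so reads of the pair cannot be told apart.

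Clec4d, Clec4e and Trem1 are activating surface receptors of myeloid cells. The C-type lectins Clec4d and Clec4e are neighbours on chromosome 6 (ENSMUSG00000030144, 123262111 to 123275265, and ENSMUSG00000030142, 123281789 to 123289870) and recognise microbial glycolipids. Trem1 (ENSMUSG00000042265, chromosome 17, 48232768 to 48246924) amplifies responses to bacteria through the adaptor Tyrobp. Clec4d was at 0.629, 0.774, 0.616, 5.03 and 1.09 CPM in Fes KO 1 to 5, against 2.61, 5.08, 7.95, 0.914 and 10.1 CPM in Fes WT 1 to 5. Its level was highest in Fes WT 5 and next highest in the muscle-rich Fes WT 3, and Fes KO 4 was level with Fes WT 2. Clec4d had the lowest log2 fold change of the 10 members, -1.70 (SE 0.76, adjusted p = 0.518). Clec4e ranged from 0.123 to 5.48 CPM in Fes KO with a median of 0.503, against 0.731 to 7.37 CPM in Fes WT with a median of 1.825; its fitted log2 difference was -1.05 (SE 1.01, adjusted p = 0.769). Trem1 ranged from 0.123 to 7.44 CPM in Fes KO with a median of 0.566, against 0.587 to 4.94 CPM in Fes WT with a median of 1.58; its fitted log2 difference was -0.25 (SE 0.99, adjusted p = 0.952). Trem1 was higher in Fes KO 4 than in any other tumour. Its closest other transcript, 9830107B12Rik, is 80.7% identical over 788 bases, so some reads could be shared.

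**Figure D1:**
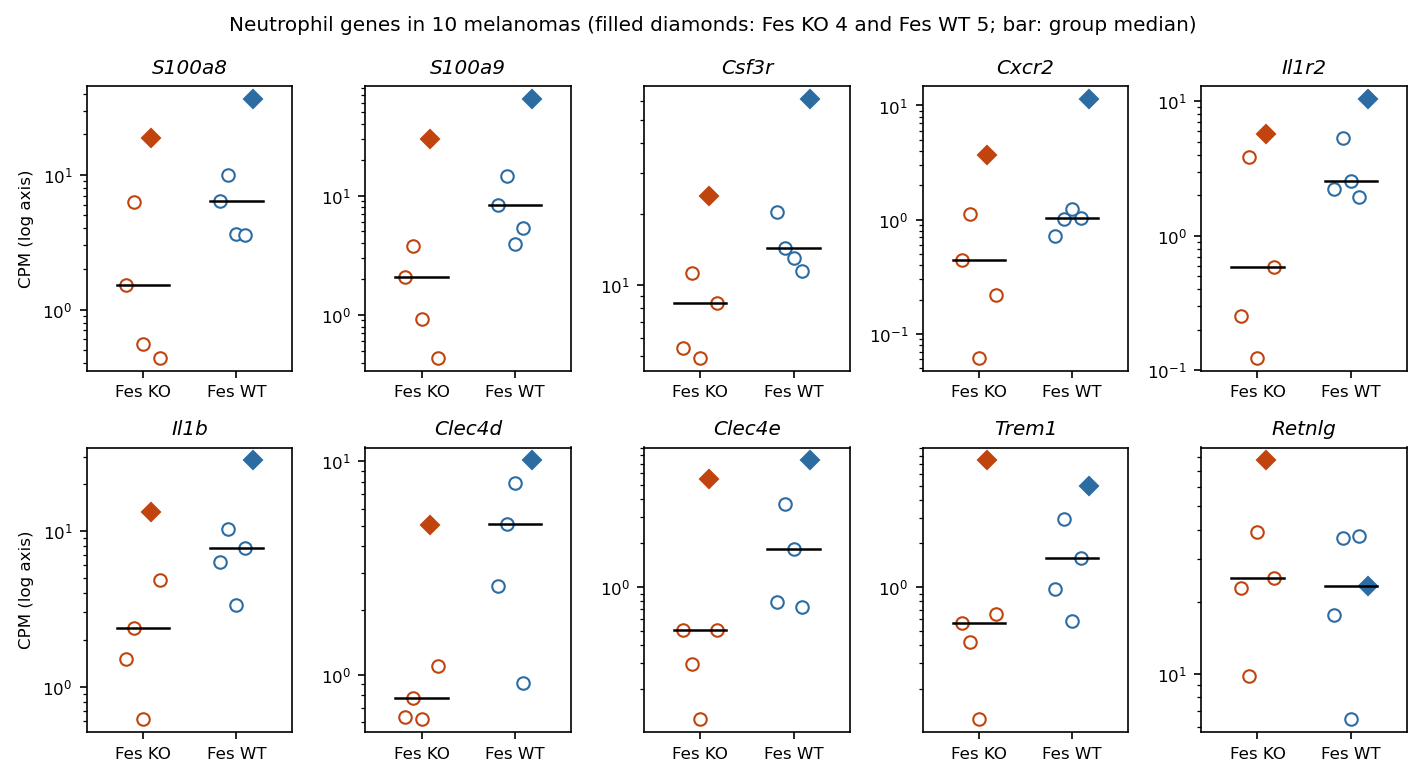
CPM of each of the 10 genes on a log axis for the 5 Fes KO tumours (left in each panel) and the 5 Fes WT tumours (right), with bars at the group medians. Filled diamonds mark Fes KO 4, highest of its group in all 10 genes, and Fes WT 5, highest of its group in 9.

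Retnlg, a small secreted protein of the resistin family found in mouse neutrophils and bone marrow (ENSMUSG00000022651, chromosome 16, 48872621 to 48874496), did not follow the others. It was at 22.8, 9.82, 39.2, 77.7 and 25.0 CPM in Fes KO 1 to 5, against 17.7, 36.9, 6.45, 37.7 and 23.2 CPM in Fes WT 1 to 5. Fes KO 4 was again highest, but Fes KO 3, where 7 of the 10 genes had their lowest level, was second, and Fes WT 5 lay in the middle of its group. There were 57.3 and 42.5 Retnlg reads per S100a9 read in Fes KO 5 and Fes KO 3, against 0.360 in Fes WT 5. Its log2 fold change was 0.52 (SE 0.56, adjusted p = 0.798), the one value above 0. The closest other transcript is that of its paralog Retnla, at 82.8% identity over 599 aligned bases, so some reads could be shared between them. Retnla was at 14.5, 83.8, 0.492, 6.66 and 0.655 CPM in Fes KO 1 to 5, against 79.8, 4.00, 277, 1.77 and 1.22 CPM in Fes WT 1 to 5. The tumour richest in Retnla, Fes WT 3, was the poorest in Retnlg.

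Over the whole set, 0 of 10 members were called at an adjusted p below 0.05 in edgeR, where 0.175% of all tested genes were called, 0.0472% higher and 0.128% lower in Fes KO. DESeq2, limma-voom with quality weights and limma on the deposited log2 values also called 0. Before adjustment, 1 of 10 members passed the threshold of 0.05 in edgeR, namely Clec4d, and 9.62% of all tested genes did. The groups overlapped for all 10 members, so 0 of 10 were separated, against 1.82% of tested genes. The log2 fold change was below 0 for 9 of 10 members with a median of -1.13, against a median of 0.01 and 47.6% below 0 over all tested genes. These genes were read in the same tumours and their levels were correlated, so they are not independent. Per kilobase of exon, the order of mean levels began with Retnlg, S100a9 and S100a8 in both groups, at 58.9, 14.1 and 7.90 CPM per kilobase in Fes KO and 41.1, 37.0 and 17.4 CPM per kilobase in Fes WT. Clec4e was at the low end in both, at 0.279 CPM per kilobase in Fes KO and 0.580 CPM per kilobase in Fes WT. The ranges over tumours of neighbours in this order overlapped in both groups.

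**Figure D2:**
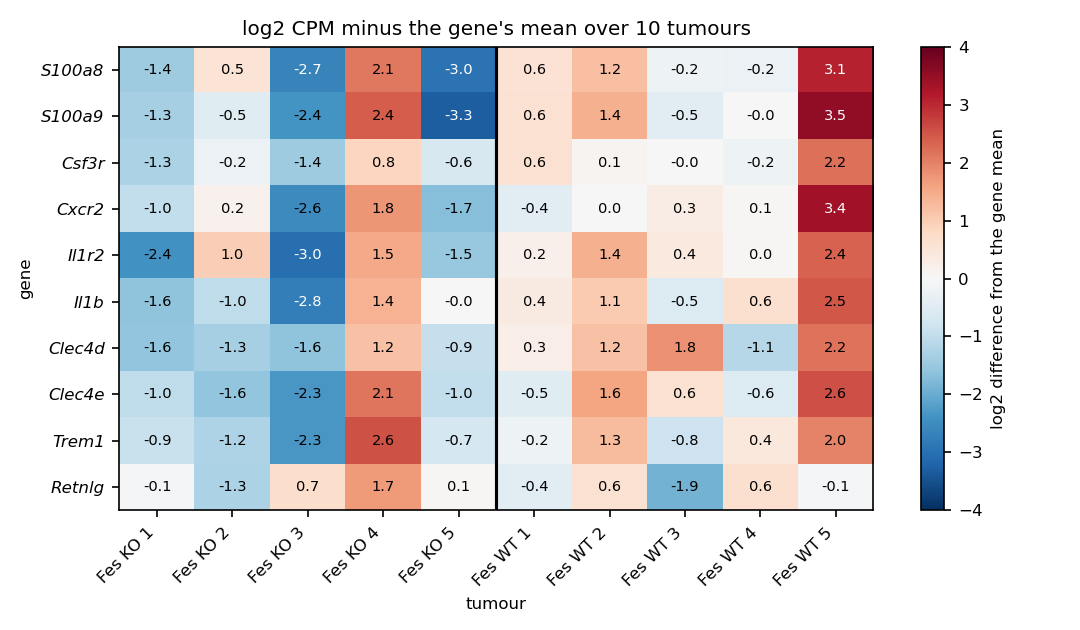
Log2 CPM of each gene (rows) minus that gene's mean over the 10 tumours, with Fes KO tumours left of the line and Fes WT tumours right. Fes KO 4 stands above the gene's mean for all 10 genes and Fes WT 5 for 9 of them, all but Retnlg, while Fes KO 3 stands below it for all but Retnlg.

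In each group 1 tumour stood out. Fes KO 4 was the highest Fes KO tumour for all 10 members, at 3.25 to 19.7 times the median of the other 4 Fes KO tumours. Fes WT 5 was the highest Fes WT tumour for 9 members, at 2.63 to 11.1 times the median of the other 4 Fes WT tumours, and had 0.850 times that median for Retnlg. For 8 members these 2 tumours were the 2 highest of all 10. Fes KO 4 also had the most blood RNA, with 241 CPM summed over 7 erythroid genes where the remaining Fes KO tumours had 28.8 to 34.8 CPM. Fes WT 5 had 51.9 CPM in a Fes WT range of 19.5 to 201.5 CPM. The part of blood in the member levels was not tested. The fitted differences moved with these 2 tumours. Without Fes WT 5 the median log2 fold change of the members was -0.24, Cxcr2 and Trem1 lay above 0 at 0.15 and 0.28, and S100a8 and S100a9 had -0.09 and -0.13. Without Fes KO 4 the median was -2.35, all 10 members lay below 0, and S100a9 had -3.37 (SE 1.02, adjusted p = 0.230) and Clec4e -2.97 (SE 0.81, adjusted p = 0.200). With both left out, a choice made after their values were seen, 9 members were tested, because Trem1 then failed the filter. All 9 lay below 0, with a median of -1.38, from -2.39 for Clec4d (SE 0.62, adjusted p = 0.169) to -0.02 for Retnlg. No member was called in any of these fits. Fes KO 1 and Fes KO 2 expressed Xist, which coats the silenced X chromosome, at 712 and 639.6 CPM, against 717 CPM in Fes WT 5, and elsewhere it did not exceed 0.677 CPM. Without those 3 tumours the median log2 fold change of the members was 0.20 and 4 of 10 lay below 0. That fit left out Fes WT 5 but kept Fes KO 4, so the change of sign cannot be tied to Xist expression. The direction of the set depends on which tumours are kept. Fes WT 5 is also the tumour whose number has a different prefix, and the part of that difference in the fits was not tested.

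**Figure D3:**
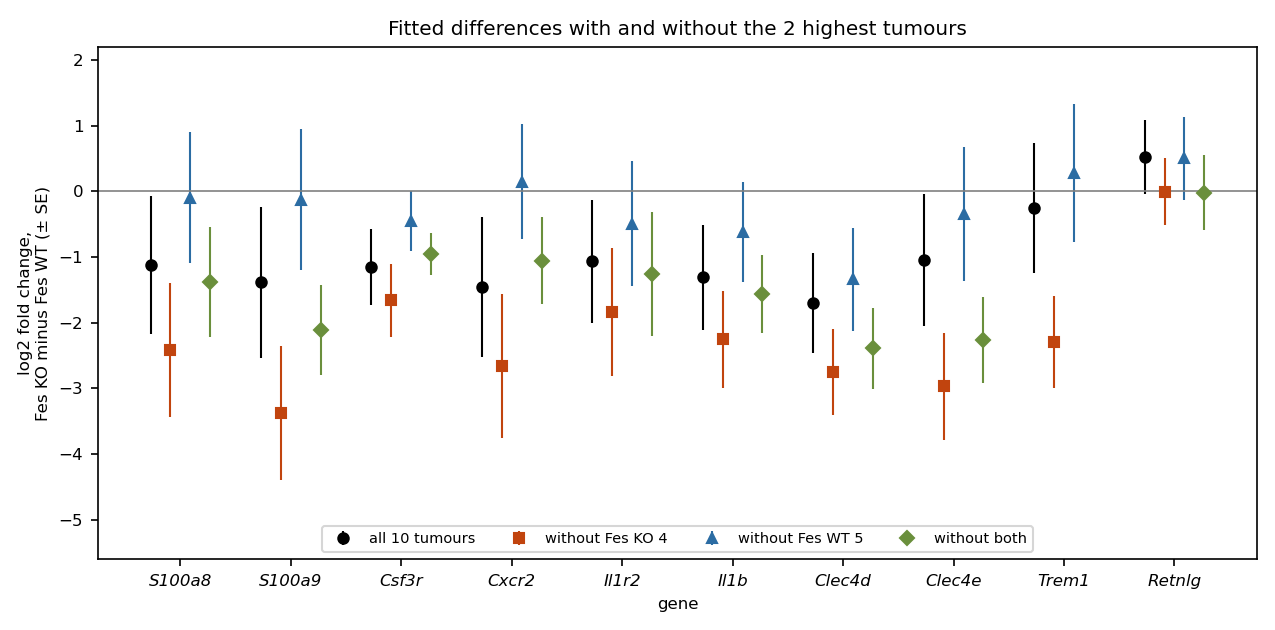
Log2 fold change (Fes KO minus Fes WT, ± SE) of each gene fitted on all 10 tumours, without Fes KO 4, without Fes WT 5, and without both. S100a9 is at -1.39, -3.37, -0.13 and -2.11 in that order, and Trem1 has no value without both.

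The members were then compared with each other across the 10 tumours. S100a8 and S100a9 followed each other most closely (Pearson's r = 0.98, permutation p = 2e-05, adjusted p = 1.2e-04 over a family of 6 relations; Spearman's rho = 0.95, permutation p = 8e-05, adjusted p = 4.8e-04). Without Fes KO 5 and Fes WT 5, the 2 tumours farthest from the median of S100a8, r was 0.96. Clec4d and Clec4e had r = 0.90 (permutation p = 6e-04, adjusted p = 0.0012) and rho = 0.93 (permutation p = 4.5e-04, adjusted p = 0.00135), and r = 0.92 without Fes WT 3 and Fes WT 5. Csf3r and Cxcr2 had r = 0.91 (permutation p = 4.6e-04, adjusted p = 0.0012) and rho = 0.78 (permutation p = 0.0105, adjusted p = 0.0157), and Il1b and Il1r2 had r = 0.84 (permutation p = 0.0021, adjusted p = 0.00315) and rho = 0.79 (permutation p = 0.00895, adjusted p = 0.0157). Without Fes KO 3 and Fes WT 5 these were r = 0.73 and r = 0.64.

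All 45 pairs of members were examined as well, a step added after the data were seen. Among the 36 pairs without Retnlg, r lay between 0.69 and 0.98, all 36 had an adjusted permutation p below 0.05 over the 45, and 34 did so by Spearman's rho. Leaving out the 2 farthest tumours on the first gene of each pair gave r between 0.51 and 0.96. Fes WT 5 was always left out, but Fes KO 4 was kept in most pairs. Both were left out for Clec4e with Trem1, Clec4e with Il1r2 and Trem1 with Il1r2, where r was 0.82, 0.68 and 0.67. Whether the other pairs rest on Fes KO 4 and Fes WT 5 together was not tested. In the 9 pairs with Retnlg, r lay between -0.07 and 0.48 with a lowest adjusted permutation p of 0.189, and 0 of 9 passed by either measure. Clec4d and Retnlg had the lowest value and Trem1 and Retnlg the highest.

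The tested genes outside the set with the most similar pattern over the same 10 tumours (Pearson's r of log2 CPM) are given as a description. The best match among many genes over 10 tumours can have a high r without any link between the genes. Csf3r was matched best by Il10ra, the interleukin 10 receptor of leukocytes, at r = 0.98, and Cxcr2 by Slfn1 at 0.99. For S100a8 the closest were Kmo, Card9 and Ptpn1 at 0.97, 0.96 and 0.96, where Card9 is the adaptor that carries C-type lectin signals, and for S100a9 Trim30b, Aif1 and Naprt at 0.98, 0.96 and 0.96. Il1r2 was matched by Ltb, Cxcl14 and Adh7, at 0.97, 0.96 and 0.96. Il1b was followed by Gnl2 at 0.96, Gm11696 at 0.94 and Prtn3, the granule protease proteinase 3, at 0.93, and Clec4d by Rtfdc1 at 0.96. Clec4e was closest to Rtn4rl2 at 0.97 and Trem1 to Gm28869 at 0.98, and each of these 2 genes was also among the 3 closest to the other member. Retnlg had a different list, led by Uri1 and Erbb2ip at 0.96 and 0.94, with Ccr3, a chemokine receptor best known from eosinophils, at 0.94.

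Markers of other cell types, some of which share these genes, were measured beside them. Each of 14 macrophage markers had a negative log2 fold change; their median was -0.75 and 0 were called. Their summed level was 971 to 2149 CPM in Fes KO and 1660 to 3272 CPM in Fes WT. Within Fes KO the highest sum was in Fes KO 4, the tumour that was also highest for the neutrophil genes, whereas within Fes WT it was in Fes WT 1 and not in Fes WT 5. Of 9 monocyte markers 8 were tested, with 7 below 0, a median of -0.54 and 0 called. All 7 tested T cell markers lay below 0 with a median of -1.12, close to the -1.13 of the members, and 0 were called. Their sum was 3.57 to 19.7 CPM in Fes KO, highest in Fes KO 2, and 9.47 to 35.0 CPM in Fes WT, highest in Fes WT 5. Of 10 dendritic cell markers 8 lay below 0 with a median of -0.46, and of 8 mast cell markers 7 with a median of -0.32, with 0 called in either list. Negative medians were thus also found in lists of other cell types, among them the erythroid (-0.45) and skeletal muscle (-2.96) lists. Positive medians were found for melanoma and melanocyte markers (0.60), keratinocyte markers (2.93) and the 1 tested stressed keratinocyte gene (1.81). Without Fes KO 2 the median of the keratinocyte markers was -1.77 and that of the melanoma and melanocyte markers 0.25. On all 10 tumours 0 genes were called in any of these lists. Csf3r against Csf1r, the macrophage growth factor receptor, gave 0.0763 reads per Csf1r read in Fes KO 4 and 0.0312 to 0.0578 in the other Fes KO tumours, against 0.171 in Fes WT 5 and 0.0423 to 0.0593 in the other Fes WT tumours. Between the groups this log2 ratio differed by -0.35 (-4.32 ± 0.47 in Fes KO and -3.965 ± 0.81 in Fes WT, SD, n = 5 each; exact 2-sided permutation p = 0.508, adjusted p = 0.818 over 4 ratios). Il1b and the mean of the macrophage markers had r = 0.56 (permutation p = 0.0925, adjusted p = 0.111) and rho = 0.43 (permutation p = 0.221, adjusted p = 0.265), with r = 0.42 without Fes KO 3 and Fes KO 5. The part of macrophages in the levels of Il1b, Clec4d, Clec4e and Trem1 was not tested.

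Shares of the S100 pair were set beside the keratinocyte markers. S100a8 took 62.1% of the 169 reads of S100a8 and S100a9 in Fes KO 2 (exact 95% interval 54.4% to 69.5%). It took 38.8% of 738 reads in Fes KO 4 (35.2% to 42.4%), against 36.3% of 1330 reads in Fes WT 5 (33.7% to 39.0%). Outside Fes KO 5, where each gene had 6 reads, the share in the other 6 tumours lay between 37.5% and 48.3%, and the intervals of Fes KO 1 (29.1% to 55.9%), Fes KO 3 (18.8% to 59.4%) and Fes KO 5 (21.1% to 78.9%), and of Fes WT 3 (38.9% to 57.7%), overlapped that of Fes KO 2. These intervals cover counting error only. Fes KO 2 was the one tumour where S100a8 had more reads than S100a9. The stressed keratinocyte genes had a summed level of 2094 CPM in Fes KO 2 and no more than 10.6 CPM in the other Fes KO tumours, against 1.63 to 75.2 CPM in Fes WT. Fes WT 5, highest of all in S100a8, was also the highest Fes WT tumour on both keratinocyte lists by summed CPM. By mean log2 CPM, Fes WT 3 was higher on the stressed keratinocyte list, at 0.51 against -0.05 in Fes WT 5. The part of keratinocytes in the S100a8 and S100a9 levels was not tested. Over all 10 tumours S100a8 and the mean of the keratinocyte markers had r = 0.25 (permutation p = 0.497, adjusted p = 0.497) and rho = 0.10 (permutation p = 0.786, adjusted p = 0.786), and r = -0.04 without Fes KO 2 and Fes WT 5. Without Fes KO 2 the log2 fold change of S100a8 was -1.18.

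**Figure D4:**
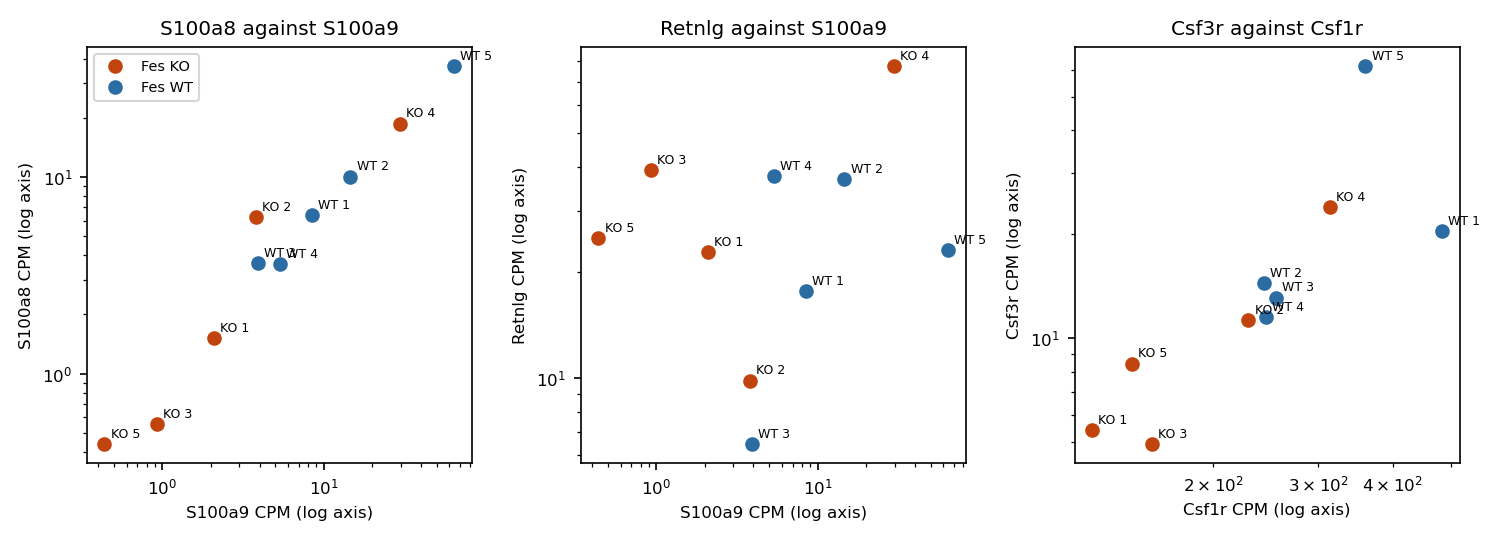
CPM of S100a8 against S100a9, Retnlg against S100a9 and Csf3r against Csf1r on log axes, 1 point per tumour (orange Fes KO, blue Fes WT). S100a8 follows S100a9, Retnlg does not follow S100a9, and Fes WT 5 has the highest Csf3r for its Csf1r, at 0.171 reads per read.

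Within tumours, the log2 ratio of S100a8 over S100a9 was -0.20 ± 0.57 in Fes KO and -0.48 ± 0.26 in Fes WT (SD, n = 5 each; exact 2-sided permutation p = 0.397, adjusted p = 0.818). Clec4e over Clec4d was -0.74 ± 0.67 in Fes KO and -0.96 ± 0.80 in Fes WT (exact permutation p = 0.635, adjusted p = 0.818), and Il1b over Il1r2 was 1.396 ± 1.303 in Fes KO and 1.225 ± 0.59 in Fes WT (exact permutation p = 0.818, adjusted p = 0.818). Each of these differences was within the spread between tumours, and a p that misses the threshold does not show that the ratios were alike.

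The wider neutrophil programme was read from lists that hold the genes by role, and the 3 tested genes with the highest mean CPM in each list are named. None of these lists holds a member. Of the 16 granule genes 8 were tested and 0 called, with 5 below 0 and a median log2 fold change of -0.65. Lyz2, lysozyme, which macrophages also make, had -0.83 (SE 0.39, adjusted p = 0.531), the haptoglobin gene Hp -1.47 (SE 0.93, adjusted p = 0.635) and the gelatinase gene Mmp9 0.35 (SE 0.49, adjusted p = 0.850). The 8 untested genes included the granule markers near the floor. Of the 25 surface and mature-cell genes 14 were tested and 0 called, with 10 below 0 and a median of -0.46. G0s2, a lipase inhibitor, had -0.77 (SE 0.41), and the integrin genes Itgb2 and Itgam, whose products pair on neutrophils and macrophages, had -0.66 (SE 0.38) and -0.84 (SE 0.42).

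Among the chemokines and growth factors that recruit neutrophils, 5 of 12 genes were tested, all 5 lay below 0 and 0 were called. Cxcl5, a ligand of Cxcr2, was at 2.202, 0.714, 1.05, 8.42 and 1.97 CPM in Fes KO 1 to 5, against 2.22, 12.1, 1.30, 1.52 and 178 CPM in Fes WT 1 to 5. The tumours highest in Cxcl5, Fes KO 4 and Fes WT 5, were those highest in Cxcr2 in each group. Its log2 fold change of -3.76 (SE 1.49, adjusted p = 0.468) was -0.57 without Fes WT 5. Lif had -0.21 (SE 0.49) and Cxcl1, another Cxcr2 ligand, -0.45 (SE 0.83). Cxcl1 was highest in Fes WT 5 among Fes WT tumours, at 13.75 CPM. Among Fes KO tumours it was highest in Fes KO 5, at 17.25 CPM, where Cxcr2 was at 0.218 CPM, against 2.68 CPM in Fes KO 4. Lif was highest in Fes KO 5 and Fes WT 3, at 36.5 and 40.1 CPM. A link between these factors and the member levels was not tested.

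Signalling partners of the members were also measured. In the interleukin 1 pathway 13 of 14 genes were tested and 0 called, with 11 below 0 and a median of -0.34. The mean level of Il1r1, the signalling receptor that Il1r2 competes with, was 61.6 ± 28.6 CPM over the Fes KO tumours, against 158 ± 63.3 CPM over the Fes WT tumours (SD, n = 5 each). The log2 fold change of Il1r1 was -1.34 (SE 0.37, adjusted p = 0.278) in edgeR, and DESeq2 called it at an adjusted p of 0.0261. DESeq2 called 300 genes in all, against 26 in edgeR. No other setting called Il1r1, with an adjusted p of 0.06075 in limma-voom. The groups overlapped, with Fes KO 4 at 109 CPM and Fes WT 4 at 68.5 CPM. Il1rap, its co-receptor, had 0.09 (SE 0.27) and the adaptor gene Myd88 -0.29 (SE 0.21). Of the 12 genes of Trem1 and C-type lectin signalling 11 were tested and 0 called, with 10 below 0 and a median of -0.58. Tyrobp had -0.64 (SE 0.28), the adaptor gene Fcer1g -0.58 (SE 0.33) and Bcl10 -0.06 (SE 0.09). All 13 genes of G-CSF receptor signalling were tested and 0 called, with 11 below 0 and a median of -0.19. Stat3 and Jak1, which carry the signal of the receptor, had -0.23 (SE 0.14) and -0.19 (SE 0.10), and the C/EBP factor gene Cebpd -1.20 (SE 0.45, adjusted p = 0.435).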

How the data were processed

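RNA sequencing counts of 10 mouse melanomas were used, 5 Fes KO and 5 Fes WT, grouped by the sample titles. The submitters' processing notes name STAR (2.51b), FastQC, Subread (1.4.6) and, as builds, GRCm38 and mm10. Settings, strand handling included, were not given in the sources used here. The authors deposited raw counts per gene, and log2 values that recompute, to a relative 6.1e-11, from those counts after division by a size factor and addition of 1. The 10 genes and all gene lists were chosen with earlier results of these data known.

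Counts were tested in R version 4.3.3 with edgeR version 4.0.16 (TMM, filterByExpr by group, quasi-likelihood fit, 2-sided test, Benjamini-Hochberg over 14816 genes, threshold 0.05). The script was tested on simulated data. Log2 CPM used a prior count of 2. Ratios were compared by exact permutation over 252 assignments, whose smallest p is 0.00794, and correlations by 100000 permutations (scipy version 1.17.1). Within a group, tumours differed by far more than sampling noise, and each was counted as 1 replicate. That difference does not show that they came from separate animals. Intervals on counts are exact (Clopper-Pearson, 95%) and cover counting error only. Exon lengths and positions came from GENCODE M21 (GRCm38), similar transcripts from blastn version 2.17.0+ and promoters from RefSeq.

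Named are the 10 members, Fes, 4 further neutrophil markers, the 3 genes of each pathway list with the highest mean CPM, and genes closest in pattern to members. Of the markers of other cell types, Sox10 and Csf1r are named, and sums, counts or medians are given for the rest. Retnla, the closest transcript to Retnlg, and Xist were named outside this rule. Alternatives were other scalings and filters, DESeq2 version 1.42.0, limma version 3.58.1, tissue covariates, the replicate number as a block, and tumours left out.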

Additional observations from a re-analysis of the deposited data

Results flagged for a closer look

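Within each group of 5 tumours the distance of the highest or lowest tumour from its nearest neighbour was set against the group's range. The critical value was 0.71 (Dixon's test at 95%). Chance marks about 1 in 20 groups when groups are independent and values normally distributed, whereas most members were correlated across tumours. Of 20 groups of member levels in CPM, 9 stood out, 5 through Fes WT 5 and 4 through Fes KO 4. These 9 are therefore not separate events and were not tested against that rate. Fes KO 4 stood apart for S100a9 at 0.884 of the range, Clec4d at 0.892, Clec4e at 0.928 and Trem1 at 0.927. Fes WT 5 stood apart for S100a8 at 0.805, S100a9 at 0.823, Csf3r at 0.821, Cxcr2 at 0.951 and Il1b at 0.719.

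The same was done for 50 groups of the other values, and 10 stood out. In Fes KO 4 these were Mmp9 at 0.766, Cxcl5 at 0.807 and Myd88 at 0.765. In Fes WT 5 they were Mmp9 at 0.762, Cxcl5 at 0.939 and the log2 ratio of Csf3r over Csf1r at 0.755. Fes KO 2 stood apart for Hp at 0.739 and for the summed keratinocyte markers at 0.999, Fes KO 5 for Cxcl1 at 0.864, and Fes WT 2 for Cebpd at 0.726.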

How the results depend on the processing

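No member was called under any of 22 alternative settings of the fit, where the lowest adjusted p was 0.118, for Il1r2 in limma-voom. Of 217 member values 206 kept their direction. The median of the members was -2.13 in limma-voom with quality weights, -1.67 with the keratinocyte and muscle covariates and -1.63 in limma on the deposited values, against -1.13 in edgeR; in limma-voom the log2 fold change of S100a8 was -2.60, the log2 fold change of Trem1 -1.82 and the log2 fold change of Il1r2 -2.94. The others changed sign without the 3 Xist-expressing tumours (Fes KO 1, Fes KO 2 and Fes WT 5), where S100a8 had 0.17, S100a9 0.37, Cxcr2 0.40, Clec4e 0.23 and Trem1 0.87 and the median of the members was 0.20, and with 1 tumour left out, where Cxcr2 ranged from -2.66 to 0.15, Trem1 from -2.29 to 0.28 and Retnlg from -0.0024 to 0.75. Retnlg had -0.020 without Fes KO 4 and Fes WT 5. Cxcl1 had 0.40 without the Xist-expressing tumours and 0.11 without Fes KO 4 and Fes WT 5, Il1rap -0.12 without Fes KO 4 and Fes WT 5 and -0.064 to 0.30 with 1 tumour left out, and Mmp9 -0.16 to 0.84. Lif had 0.033 with the keratinocyte and muscle covariates, 0.40 without Fes KO 2 and Fes WT 3, and -0.70 to 0.23 with 1 tumour left out. The settings without Fes KO 4 and Fes WT 5 were chosen after seeing the data. The cause was not tested.

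In the count of all genes called, edgeR gave 26, against 300 by DESeq2, 115 by limma-voom, 92 with the covariates, 64 without the Xist-expressing tumours, 59 without Fes KO 4 and Fes WT 5, and 10 to 54 with 1 tumour left out. With the replicate number as a block 4 were called and the median of the members was -1.71, and the block changed no member's call. Same-numbered tumours did not deviate together over all tested genes (r from -0.38 to 0.17). This gave no sign of pairing by number but cannot exclude it, because uneven tissue content also enters these deviations. The log2 fold change of Fes was called by DESeq2 (adjusted p = 1.29e-04), and also by limma-voom, with the covariates, without Fes KO 4 and without Fes KO 4 and Fes WT 5.

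For the ratios, S100a8 over S100a9 was -0.031 and Csf3r over Csf1r 0.066 without the Xist-expressing tumours. With 1 tumour left out Clec4e over Clec4d ranged from -0.052 to 0.42, Il1b over Il1r2 from -0.18 to 0.69 and Csf3r over Csf1r from -0.50 to 0.0031, and no adjusted p passed. The 6 correlations kept their direction and side of the threshold with a prior count of 0.5, on the deposited log2 values and with each tumour left out in turn, whereas that of S100a8 with the keratinocyte markers was -0.04 without Fes KO 2 and Fes WT 5. Members with 1 to 3 reads in a tumour (Cxcr2, Clec4e, Trem1 and Il1r2) are limited by depth there. Clec4e and Trem1 were not tested with a filter of 1 CPM in 5 tumours, and DESeq2 gave Cxcr2 no adjusted p.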
